A study of Mus musculus with 2 samples.

Results

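The genes described here are nucleoporins, the proteins that build the nuclear pore complex, and the importins and exportins that carry cargo through it. They were chosen by name. Members are the rows whose symbol starts with Nup or Ipo followed by a digit, or with Xpo or Kpn, outside chromosomes 10 and 17. The rule found 36 of the 48550 rows of the table, 18 nucleoporins and 18 transport receptors, on 14 chromosomes. It left out 6 rows with such names on the 2 chromosomes (Nup37, Nup43, Nup107 and Xpot on chromosome 10, Xpo5 and Kpna2-ps on chromosome 17).

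Total nuclear RNA came from F121-6, a female line of mouse embryonic stem (ES) cells from a hybrid 129 / cas cross, in which 1 set of chromosomes is of strain 129 and the other of *Mus musculus castaneus*. The cells grew with serum and LIF on feeder fibroblasts whose division had been stopped with mitomycin-C. All samples form 1 group of 2 libraries without a treatment, and the comparison is between the alleles within each library. Allelic differences in expression are among the stated aims of the study's design, and the question here is whether the alleles of these genes gave equal numbers of reads. F121-6 is a single line. The labels do not tell whether the libraries are separate cultures. The p-values then measure only the spread between these samples, taken over many genes, which may be technical.

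Library 1 held 28523744 allele-assigned reads and library 2 held 31402765, of which 144002 and 155260 belonged to tested members. Because the typical gene gave more reads from 129 than from cas (55.1% in library 1 and 56.2% in library 2), ratios are given relative to the typical gene. The typical gene is that set by scaling with trimmed means of M values. Of all allele-assigned reads, 53.6% in library 1 and 54.2% in library 2 came from 129. Each value is log2(129/cas) of reads scaled to CPM (reads per 1e6 of the column total after that scaling), plus 0.1. A gene with an even number of reads from both alleles thus has a negative value. A call means an adjusted p under 0.05 in limma (Benjamini-Hochberg, over all 15509 tested genes). The SE and p of each gene in limma came from a spread shared among genes of like abundance. The gene's own difference between the libraries had no part in them. Embryonic stem cell markers were present, with reads for 12 of 13 in each library, Sox2 being listed at 0, and took 0.322% to 0.343% of each allele column. Fibroblast markers were also present, with 24 of 26 in library 1 and 23 of 26 in library 2 (Lum and Timp1 were listed at 0 in both). They took 0.286% and 0.31% of the 129 columns against 0.17% and 0.162% of the cas columns. Of the 23 tested fibroblast markers, 18 were called higher from 129 and 5 had no call. Of the 12 tested embryonic stem cell markers, 1 was called higher from 129 and 5 higher from cas, with a median ratio of -0.18. Pores and transport receptors are made by fibroblasts as well as by stem cells, and the part of feeder RNA in the ratios below was not tested. In RNA of mixed cells, fewer cells of a type and less RNA per cell cannot be told apart.

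The nuclear pore complex is a channel through the nuclear envelope, built of stacked rings with filaments on the cytoplasmic side and a basket on the nuclear side. Importins bind cargo in the cytoplasm and release it in the nucleus when they meet the GTP-bound form of the small GTPase Ran, and exportins bind cargo together with that form. Importin alpha proteins are adaptors that recognise the classical nuclear localisation signal and are carried by importin beta. All dividing cells need this machinery, and in embryonic stem cells nucleoporins such as Nup153 and Nup210 have also been studied as regulators of developmental genes.

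Of the 36 members, 33 could be tested, having 20 or more allele reads per library. Both alleles were read in all of these. Averaged over the libraries, the 129 share of a member's reads ran from 44.4% to 61.5%, with a median of 54.2%. In single libraries it ran from 42.2% (Ipo4, library 1) to 67.3% (Ipo13, library 2). Relative to the typical gene, 14 members (42.4%) differed between the alleles, 11 higher from cas and 3 higher from 129, and 19 were not called. Over all tested genes 43.9% were called, 22.0% higher from cas and 21.9% higher from 129, so that the members' share lay near the background. The median log2 ratio of the members was -0.09, from -0.65 to 0.35, and their median size was 0.18, against 0.40 over all tested genes. A called difference of at least 1.5-fold was found for 2 members, against 27.4% of all tested genes, and one of at least 2-fold for 0 members, against 17.3%. Depth differs between the sets. Where both libraries held 1000 or more reads of a gene, 12 of 26 members (46.2%) were called, against 59.7% of all 4984 such genes. Of these members 3 were called higher from 129 and 9 higher from cas, and of such genes 1190 and 1787. The median ratios were -0.09 for these members and -0.07 for such genes, and the median sizes 0.16 and 0.25. At least 1.5-fold differences were called in 0 of these members, against 19.2% of such genes. These are descriptions of lists and carry no test.

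Directions toward cas depended on the scaling. In unscaled reads, 25 tested members had more reads from 129 in both libraries, Ipo4 and Kpna6 had more from cas in both, and 6 were mixed or even. With 1 library size for both alleles of a library, all genes had a median of 0.32 and the members one of 0.24. The members' calls in limma were then 20 higher from 129 and 0 higher from cas (0.0 at an unadjusted p under 0.05). Of all genes 51.6% were called. Of the members' calls 100.0% were higher from 129, against 81.3% of all calls. With the deposited column totals, 7 members were called higher from 129 and 4 higher from cas. These 4 were Ipo4, Kpna6, Nup50 and Nup85, and the other 7 members called higher from cas with the main scaling were lost. Of all genes 43.6% were called with these totals. Calls higher from 129 made up 61.9% of all calls and 63.6% of the members' calls. Relative to the median of all genes, the members' median was -0.09 with the main scaling and -0.08 with each of the other 2. The calls also rested on the block for library, since without it 1 member (Kpna6) was called, against 25.5% of all genes. They rested likewise on a spread shared among genes of like abundance: without that trend 0 members and 4.15% of all genes passed in limma, 2.0 members having an unadjusted p under 0.05. At an exact binomial test in each library, which uses counting error only, 16 members passed in both libraries with the same direction, against 45.5% of all tested genes. In library 1 alone 21 members passed (59.0% of all genes did) and in library 2 alone 25 (66.7%). A called ratio of at least 1.2-fold was found for 7 members, against 40.0% of all genes.

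**Figure D1:**
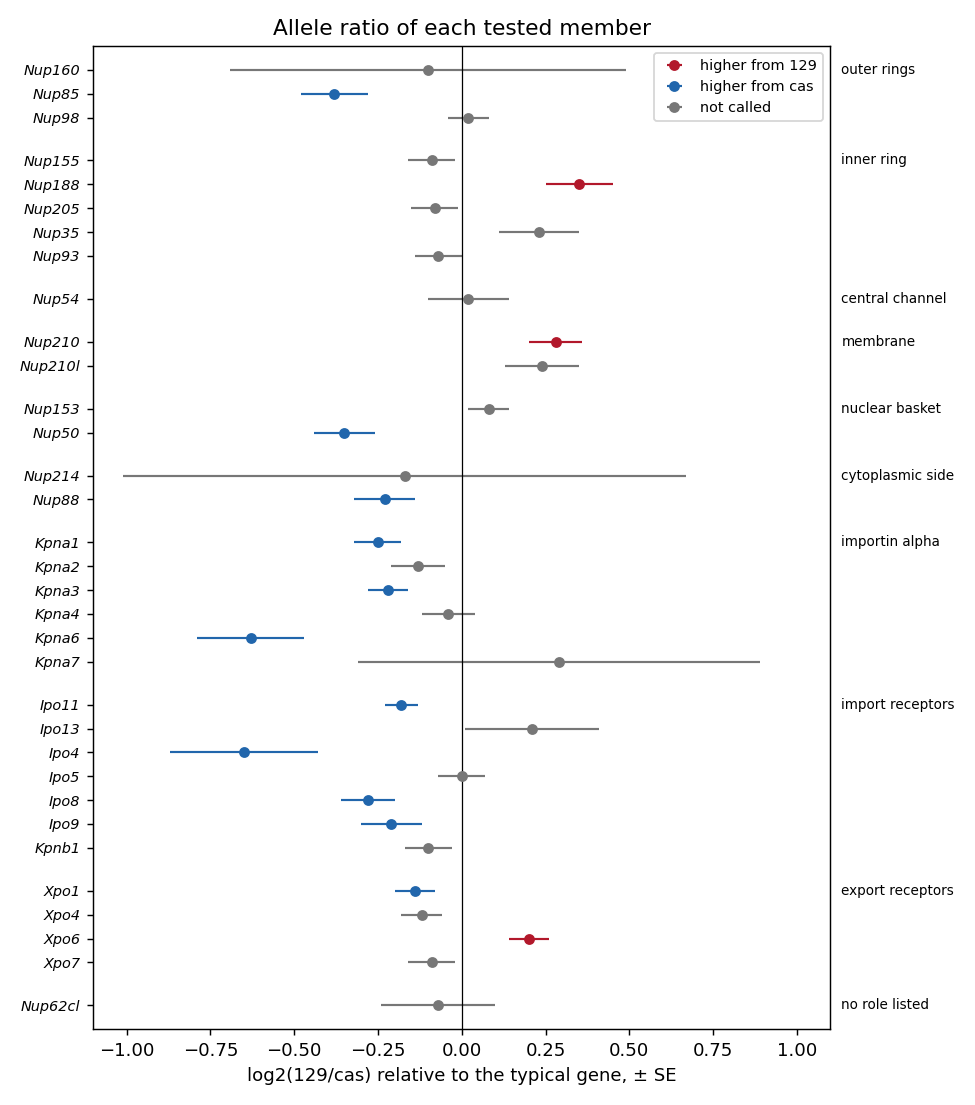
Allele ratio, log2(129/cas) relative to the typical gene, of the 33 tested members, ordered by place in the pore or role in transport. Points are limma estimates from 2 libraries and bars are ± 1 SE, in red where called higher from 129 (3 members), blue where called higher from cas (11) and grey where not called (19). With 1 library size for both alleles no member stayed called higher from cas.

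The outer rings of the pore are built from the Y complex, of which Nup85, Nup133 and Nup160 are subunits. Nup98 encodes a precursor that is cut into the FG-repeat nucleoporin Nup98 and the Y complex subunit Nup96. Nup85 (chromosome 11, 115564434 to 115583985, mm10) gave 880 reads from 129 and 851 from cas in library 1, and 982 from 129 and 1088 from cas in library 2. The 129 share was below that of the typical gene in both, and below an even split in library 2. Its log2 ratio was -0.38 (SE 0.10, adjusted p = 0.00087 in limma), with -0.25 and -0.51 in the libraries. With 1 shared library size it was -0.05 (adjusted p = 0.72).

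Nup98 was the nucleoporin with the most reads, 6010 from 129 and 4946 from cas in library 1, and 6257 and 4666 in library 2. Its ratio of 0.02 (SE 0.06) was not called, and the 95% interval of -0.08 to 0.13 corresponds to 0.95-fold to 1.09-fold. Nup160 had only 24 and 17 reads in library 1 and 27 and 28 in library 2. Its interval of -1.26 to 1.06 leaves a 2-fold difference undetectable at this depth.

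Nup133 (chromosome 8, 123897123 to 123949265) was listed at 0 in all 4 columns. Of the 12 other protein-coding genes that start within 500 kb of it, 11 were listed at 0 too. Nup62, a central channel nucleoporin, and Ipo7, an importin of the beta family, both on chromosome 7, were likewise listed at 0 in every column. Around Nup62, 0 of 52 protein-coding neighbours were at 0, and around Ipo7 2 of 13 were. Annotated genes overlap both, Atf5 and Il4i1 in the case of Nup62, and 1600010M07Rik, Gm25636 and Snora23 in that of Ipo7. Of all 21223 protein-coding rows 20.1% were listed at 0, and of 24 genes that most cells use, chosen after the data had been seen, B2m was. A listing at 0 therefore says nothing about whether these 3 genes were transcribed.

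In the inner ring, which anchors the pore's central channel, Nup188 was the only 1 of 5 tested members to be called. Nup188 (chromosome 2, 30286397 to 30344266) had 1024 reads from 129 and 708 from cas in library 1, and 1373 from 129 and 776 from cas in library 2. The 129 share was above that of the typical gene in both libraries, at 61.5% ± 3.37 (SD, n = 2). The ratio was 0.35 (SE 0.10, adjusted p = 0.0025), or 1.27-fold, and rose to 0.68 with 1 shared library size. The predicted gene Gm28038 overlaps Nup188 on the same strand and Gm14471 on the opposite strand, and the sources used here do not state how overlaps were counted.

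Nup35 gave 778 reads from 129 and 558 from cas in library 1, and 874 and 564 in library 2. Its ratio of 0.23 (SE 0.12, adjusted p = 0.11) was not called. Nup205 and Nup93, which bind each other in the inner ring, had ratios of -0.08 (SE 0.07) and -0.07 (SE 0.07). Nup155 had 3614 reads from 129 and 2632 from cas in library 1 but 3386 and 3324 in library 2. The 129 share thus lay above the typical gene in the first library (57.9%) and below it in the second (50.5%). The mean ratio of -0.09 (SE 0.07) was not called. That SE comes from genes of like abundance and does not show how far the libraries of Nup155 itself differed.

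Nup210 is a membrane glycoprotein that spans the nuclear envelope at the pore. It gave 1784 reads from 129 and 1170 from cas in library 1, and 2314 and 1523 in library 2, shares of 60.4% and 60.3%. Both libraries lay above the typical gene, with ratios of 0.31 in library 1 and 0.24 in library 2. The ratio was 0.28 (SE 0.08, adjusted p = 0.0028), or 1.21-fold, on chromosome 6 (91013068 to 91116829), where no annotated gene overlaps it. Its relative Nup210l, on chromosome 3, had 1010 reads from 129 and 607 from cas in library 1, and 938 and 706 in library 2, with ratios of 0.44 and 0.05. The mean of 0.24 (SE 0.11, adjusted p = 0.060) was not called.

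In the nuclear basket, Nup50 was called and Nup153 was not. Nup50, which binds importin alpha and helps to release its cargo, gave 1222 reads from 129 and 1341 from cas in library 1, and 1124 and 1054 in library 2. Both shares, 47.7% and 51.6%, were below the typical gene, and the ratio was -0.35 (SE 0.09, adjusted p = 0.00078), or -0.02 with 1 shared library size. Nup153, the basket's anchor at the nuclear ring, had 4302 and 3354 reads in library 1 and 4427 and 3209 in library 2. Its ratio of 0.08 (SE 0.06, adjusted p = 0.29) was not called, with an interval of 0.97-fold to 1.15-fold.

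On the cytoplasmic side, Nup88 and Nup214 form a complex that takes part in export. Nup88 gave 1168 reads from 129 and 1171 from cas in library 1, and 1529 from 129 and 1324 from cas in library 2. The ratio was -0.23 (SE 0.09, adjusted p = 0.031), and turned to 0.10 (adjusted p = 0.37) with 1 shared library size. The call was also lost with a minimum of 100 reads. Rabep1 overlaps Nup88 on the opposite strand, and the sources used here do not state whether strand was used in counting. Nup214 had 10 reads from each allele in library 1 and 12 and 10 in library 2, too few to show even a 2-fold difference (interval of 0.28-fold to 2.79-fold). In the central channel, Nup54, an FG-repeat protein, had 716 reads from 129 and 521 from cas in library 1 and 791 and 667 in library 2, with a ratio of 0.02 (SE 0.12). The X-linked Nup62cl, a gene named for its likeness to Nup62, had 0.15 in library 1 and -0.29 in library 2, and neither gene was called.

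**Figure D2:**
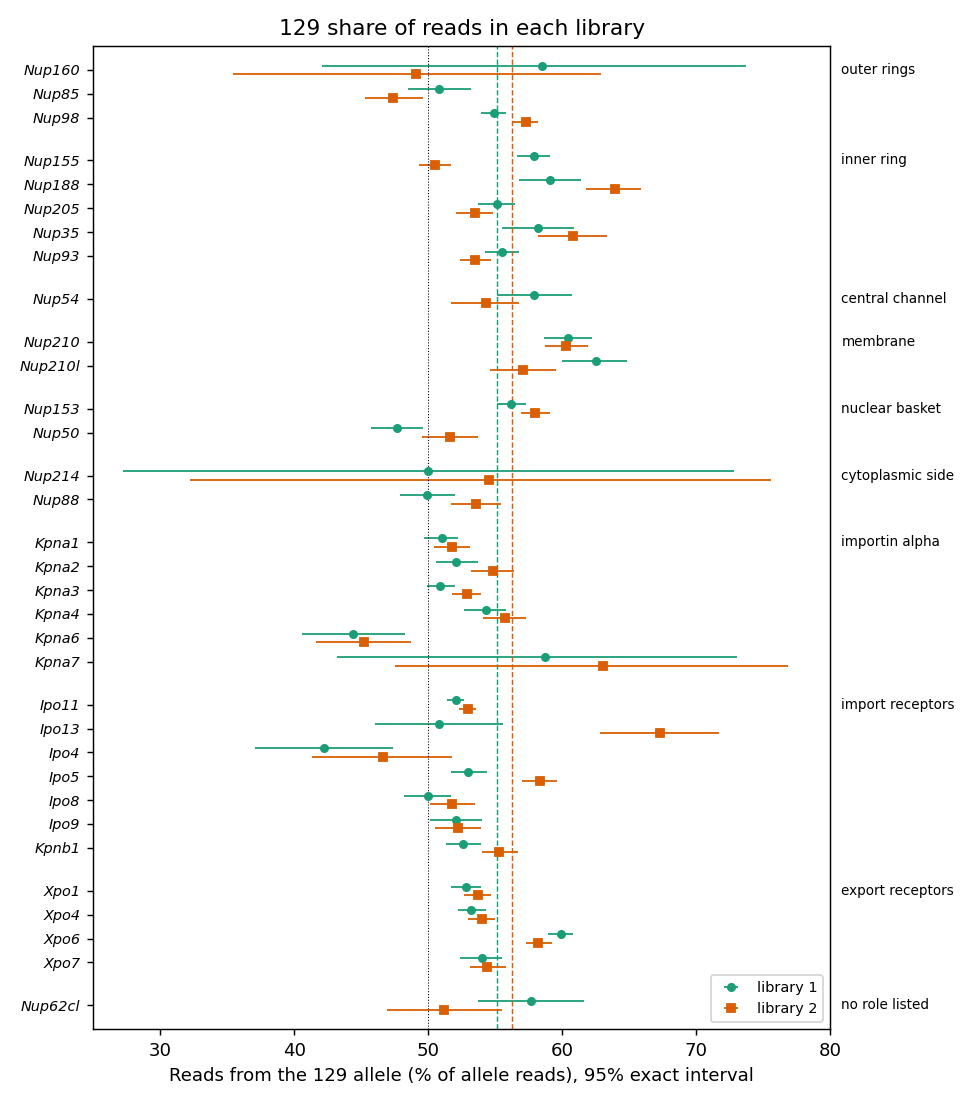
Share of allele reads from 129 (%) of each tested member in library 1 (circles) and library 2 (squares), with exact 95% binomial intervals that cover counting error only. Dashed lines mark the typical gene in each library (55.1% and 56.2%) and the dotted line an even split; Kpna6 and Ipo4 lie below 50% in both libraries, and Ipo13 and Nup155 have libraries far apart.

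All 6 importin alpha genes of the table outside the excluded chromosomes were tested, and Kpna1, Kpna3 and Kpna6 were called higher from cas, while the other 3 were not called. Kpna6, an importin alpha of the same subfamily as Kpna1, gave 297 reads from 129 and 372 from cas in library 1, and 355 from 129 and 431 from cas in library 2. The cas allele gave more reads in both libraries even before scaling. The 129 share was 44.8% ± 0.55 (SD, n = 2) and the ratio -0.63 (SE 0.16, adjusted p = 0.00026), a 1.55-fold difference with an interval of 0.52-fold to 0.80-fold. It stayed called without the block (adjusted p = 0.027), but had -0.30 with 1 shared library size (adjusted p = 0.10). Kpna6 lies on chromosome 4 (129643980 to 129672767) and no annotated gene overlaps it.

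Kpna1 had 3080 reads from 129 and 2964 from cas in library 1, and 2871 and 2675 in library 2. Kpna3 had 4264 and 4108 in library 1, and 4490 and 4004 in library 2. All of these shares lay between 50.9% and 52.9%, above an even split and below the typical gene. The ratio of Kpna1 was -0.25 (SE 0.07, adjusted p = 0.00084) and turned to 0.08 with 1 shared library size. The table window of Kpna1 is centred 4564 bp from the annotated start used here, and Gm15564 overlaps Kpna1 on the opposite strand. The ratio of Kpna3 was -0.22 (SE 0.06, adjusted p = 0.00093) and turned to 0.11. The other importin alpha genes were not called. Kpna2, which imports pluripotency factors in ES cells, had 2160 reads from 129 and 1984 from cas in library 1 and 2136 and 1760 in library 2, with a ratio of -0.13 (SE 0.08). A pseudogene copy, Kpna2-ps, was listed at 0. The sources used here do not state how reads that match both were assigned, so that the value of Kpna2 is uncertain. Kpna4 had -0.04 (SE 0.08), with an interval of 0.88-fold to 1.08-fold. Kpna7, known from oocytes and early embryos, had only 46 reads in each library and a ratio of 0.29 (SE 0.60).

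Among the import receptors of the beta family, 4 of 7 tested were called higher from cas (Ipo4, Ipo8, Ipo9 and Ipo11) and the other 3 were not called. With 1 shared library size the ratios of Ipo8, Ipo9 and Ipo11 turned positive. Ipo4, an importer of histones and ribosomal proteins, gave 157 reads from 129 and 215 from cas in library 1, and 169 and 194 in library 2. It was, with Kpna6, 1 of the 2 members with more reads from cas in both libraries. The ratio was -0.65 (SE 0.22, adjusted p = 0.0089), the largest in size among the tested members, with -0.32 (adjusted p = 0.22) under 1 shared library size. Its table window is centred 1938 bp from the start in the annotation used here, and the predicted gene Gm49378 overlaps it on the same strand.

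Ipo11, which imports ubiquitin-conjugating enzymes, was the member with the most reads, 10731 from 129 and 9885 from cas in library 1, and 12117 and 10757 in library 2. Its shares of 52.1% and 53.0% lay below the typical gene by a small and repeated amount. The ratio was -0.18 (SE 0.05, adjusted p = 0.00019), or 1.14-fold, and turned to 0.15 (adjusted p = 0.0032) with 1 shared library size. Ipo8, an importin that also takes part in microRNA-guided silencing, gave 1641 and 1644 reads in library 1 and 1733 and 1614 in library 2. Ipo8 had a ratio of -0.28 (SE 0.08, adjusted p = 0.0025), which turned to 0.05. Ipo9, which carries histones, gave 1351 reads from 129 and 1243 from cas in library 1 and 1674 and 1533 in library 2. Its ratio of -0.21 (SE 0.09, adjusted p = 0.043) turned to 0.12, and the call was also lost without a filter on reads or with a minimum of 100 reads. Annotated genes overlap Ipo11 (Gm28988 and Gm28989) and Ipo8 (2610017A05Rik) on the opposite strand, and Ipo9 (Gm28277) on the same strand.

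Kpnb1, the importin beta that carries importin alpha, had 2970 reads from 129 and 2676 from cas in library 1, and 2930 and 2367 in library 2. Its ratio of -0.10 (SE 0.07, adjusted p = 0.24) was not called, with an interval of 0.85-fold to 1.03-fold. Ipo5 had 2863 and 2535 reads in library 1 and 3066 and 2193 in library 2, so that it lay below the typical gene in the first (-0.12) and above it in the second (0.12). Ipo13, which both imports and exports, had the widest spread of all tested members, with 221 and 214 reads in library 1 and 299 and 145 in library 2. The 129 share was 50.8% in the first library (exact 95% interval 46.0 to 55.6) and 67.3% in the second (62.8 to 71.7), and the mean ratio of 0.21 (SE 0.20) was not called.

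The export receptors had 1 call in each direction among 4 tested. Xpo6, the exportin of actin and profilin, gave 5692 reads from 129 and 3817 from cas in library 1, and 6095 and 4371 in library 2. Both shares, 59.9% and 58.2%, exceeded the typical gene, and the ratio was 0.20 (SE 0.06, adjusted p = 0.0017), or 0.53 with 1 shared library size. It was 0.28 in library 1 and 0.12 in library 2. Gm17136 and Gm17137 overlap Xpo6 on the opposite strand. Xpo1, the main exportin of proteins with leucine-rich export signals, had 4429 and 3959 reads in library 1 and 5152 and 4438 in library 2. Its ratio of -0.14 (SE 0.06, adjusted p = 0.039) was the smallest in size among the called members. It turned to 0.19 with 1 shared library size (adjusted p = 0.0038) and was lost with a minimum of 100 reads. Xpo4 had 4641 reads from 129 and 4076 from cas in library 1 and 5500 and 4681 in library 2. Xpo4 (-0.12, SE 0.06, adjusted p = 0.082) and Xpo7 (-0.09, SE 0.07, adjusted p = 0.36) were not called.

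By kind of protein, 9 of 17 tested transport receptors were called (52.9%), 8 of them higher from cas. Of 16 tested nucleoporins 5 were called (31.2%), 3 of them higher from cas. Over all tested genes 43.9% were called, 22.0% higher from cas. Among genes with 1000 or more reads in each library 59.7% were called. The median ratios of receptors and nucleoporins were -0.13 and -0.07. Receptors had more reads per gene (a median of 4144 in library 1, against 2036 for nucleoporins), and the difference between these lists was not tested.

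**Figure D3:**
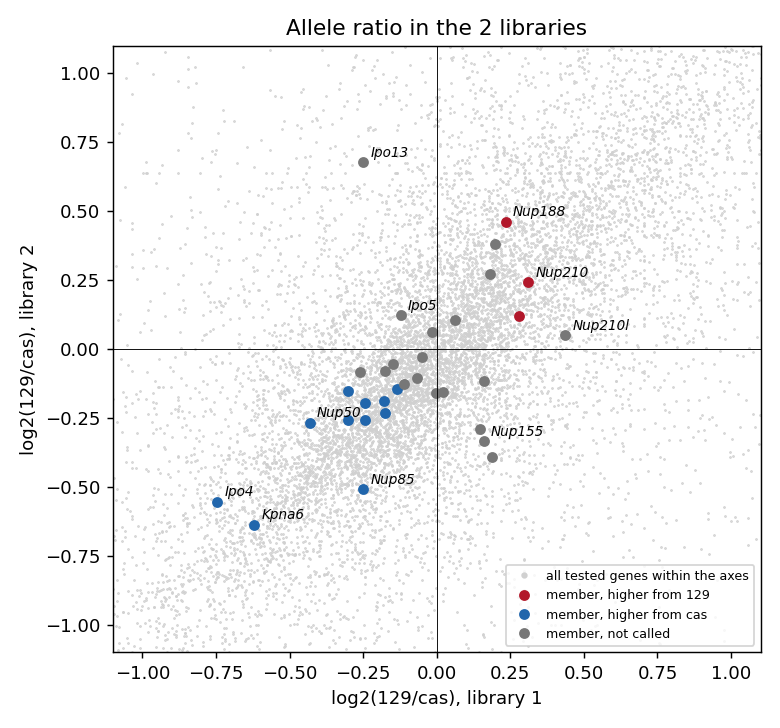
Log2(129/cas) relative to the typical gene in library 1 (horizontal) and library 2 (vertical), with members coloured by call and all tested genes within the axes in light grey. The 14 called members lie in the quadrants where both libraries have the same sign, while Ipo13, Nup155 and Ipo5 lie in quadrants of opposite sign.

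The libraries were also compared gene by gene, as a check on how far the ratios repeat. Of the 33 tested members, 8 had ratios of opposite sign in the libraries, among them 0 of the called ones. By Fisher's exact test of the reads in both libraries (two-sided, Benjamini-Hochberg over all tested genes), the 129 share differed between the libraries for 9 members, against 21.4% of all tested genes. Centred on the typical odds of each library, it differed for 8, against 21.8%. Ipo5, Ipo13, Nup155 and Nup210l passed both versions, with centred adjusted p of 0.00035, 0.0001, 4.4e-19 and 0.0024. Among the called members, the centred version found a difference for Xpo6 (adjusted p = 0.0019) and Nup85 (0.033), and the version that is not centred for Nup188 (0.017), Nup50 (0.038) and Nup88 (0.046), in each case with the same direction in both libraries. These tests compare the reads of 2 libraries and no conditions. For Kpna6 no difference between the libraries was detectable beyond counting error (centred adjusted p = 0.98), nor, in either version, for the other 8 called members, such as Kpna1 (0.89) and Ipo11 (0.87).

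**Figure D4:**
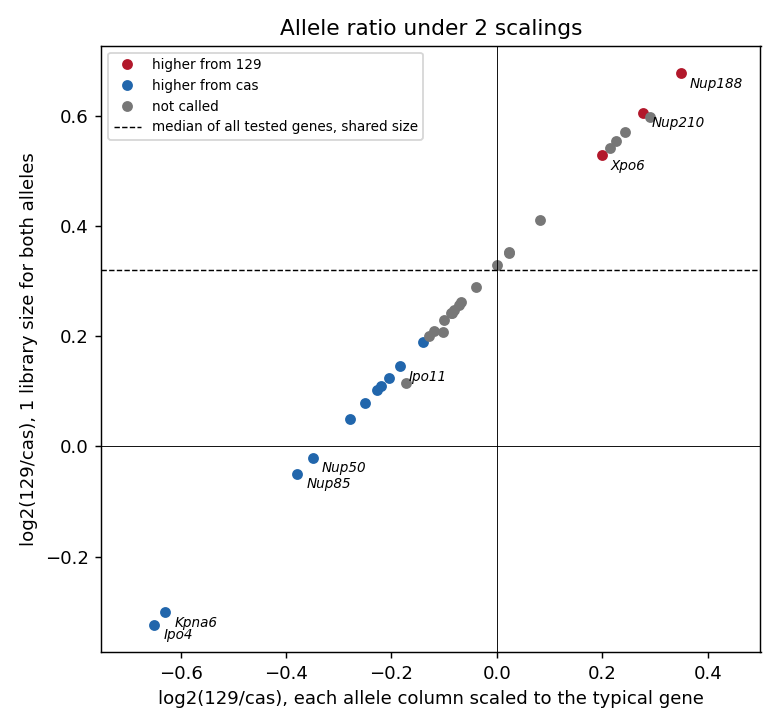
Log2(129/cas) of the tested members with each allele column scaled to the typical gene (horizontal) and with 1 library size for both alleles of a library (vertical). All members move up by a similar amount, as does the median of all tested genes (dashed line, 0.32), so that 7 of the 11 members called higher from cas cross 0 while Kpna6, Ipo4, Nup85 and Nup50 stay below it.

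Position was compared with the ratios as a description. The members are spread over 14 chromosomes, with at most 5 on any (chromosomes 11 and 14). For each tested member, the median ratio of the other tested genes starting within 500 kb was taken, over 3 to 31 genes. These medians ran from -0.35 to 0.62, and had the sign of the member's own ratio for 15 of 33 members and for 9 of the 14 called ones. Around Nup210 the median was 0.37 over 9 genes, of which 3 were called higher from 129 and 1 higher from cas. Around Kpna1 it was -0.35 over 11, with 1 and 4. Around Kpna6 it was -0.13 over 25, with 3 and 6, and around Nup188 it was -0.04, with 0 and 4 of 25 called, against the direction of Nup188 itself. No gene overlaps 14 of the 36 members in the annotation, and 6 of the 14 called ones are among these.

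Promoter windows show what lies upstream of those members for which a window was found. Windows of 300 bases (250 before to 50 after the start, RefSeq on GRCm38.p6) were found for 28 members, and for 25 of them lay within 100 bp of the centre of the table's window. These 25 held a median of 28 CpG dinucleotides, from 6 to 47, against 7 over all 32817 promoter windows. Searched on both strands, the GC box GGGCGG was in 76.0% of the 25 windows and in 35.6% of all promoters, and the CCAAT box CCAAT in 64.0% and 37.4%. The ETS core CCGGAA was in 24.0% and 14.9%, the YY1 core ATGGCG in 24.0% and 8.92%, the NRF1 palindrome in 12.0% and 6.22%, and the TATA box TATAAA in 8.0% and 13.6%. None of these motifs contains another, and the shares were not compared among promoters of like CpG content. In the windows of called members, the GC box was in 3 of 3 higher from 129 and in 4 of 6 higher from cas, and the CCAAT box in 1 of 3 and 5 of 6. In the 13 windows of uncalled members they were in 10 and 9. The YY1 core was in 2 of 3 higher from 129, 4 of 6 higher from cas and 0 of 13 uncalled, without a test. That 0 depends on the limit of 100 bp. The uncalled Nup205 held a YY1 core in a window 196 bp from the centre of the table's window, which was not counted. Windows of Ipo4 (called higher from cas, 2211 bp away) and Kpna7 (uncalled, 74394 bp away) held none and were not counted either. Only 6 of the 11 members called higher from cas had a counted window. For Kpna1, Kpna3, Kpna6 and Nup85 no window was found. A match is a description of letters and not a bound site, and the reference is C57BL/6J, so that differences between the 129 and cas alleles are not shown. The 250 bases before the start are given, on the gene's strand and in lower case with motif letters in capitals, for the 2 members of largest ratio in each direction that had a matched window. Ipo4, Kpna6 and Nup85, with larger called ratios toward cas, had no matched window and are not shown. Nup50 (chr15:84923178-84923427, plus strand) and Ipo8 (chr6:148831468-148831717, minus strand) were higher from cas with the main scaling, Ipo8 turning positive with 1 shared library size. Nup188 (chr2:30286166-30286415, plus strand) and Nup210 (chr6:91116827-91117076, minus strand) were higher from 129.
Nup50: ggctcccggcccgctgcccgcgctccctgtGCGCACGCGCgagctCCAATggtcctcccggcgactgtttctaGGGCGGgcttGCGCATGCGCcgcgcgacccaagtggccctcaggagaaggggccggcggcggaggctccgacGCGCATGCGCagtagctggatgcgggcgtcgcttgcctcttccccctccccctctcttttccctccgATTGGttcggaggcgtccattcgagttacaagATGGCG
Ipo8: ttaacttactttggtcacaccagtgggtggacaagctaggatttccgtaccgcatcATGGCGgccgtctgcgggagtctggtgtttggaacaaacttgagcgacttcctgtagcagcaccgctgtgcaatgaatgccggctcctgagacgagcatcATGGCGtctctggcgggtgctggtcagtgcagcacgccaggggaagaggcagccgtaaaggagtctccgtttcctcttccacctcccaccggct
Nup188: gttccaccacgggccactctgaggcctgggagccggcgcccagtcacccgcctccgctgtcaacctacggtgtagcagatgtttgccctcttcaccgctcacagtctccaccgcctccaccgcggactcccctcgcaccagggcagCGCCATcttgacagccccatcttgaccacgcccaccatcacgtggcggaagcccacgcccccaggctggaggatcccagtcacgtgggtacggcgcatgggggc
Nup210: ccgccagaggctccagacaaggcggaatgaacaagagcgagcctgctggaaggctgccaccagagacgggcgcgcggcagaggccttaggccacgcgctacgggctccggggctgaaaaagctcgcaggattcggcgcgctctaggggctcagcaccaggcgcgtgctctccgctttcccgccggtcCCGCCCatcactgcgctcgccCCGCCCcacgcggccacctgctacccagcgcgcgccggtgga
The Nup50 window holds 3 copies of the NRF1 palindrome, 2 CCAAT boxes, 1 GC box and 1 YY1 core, and the Nup210 window 2 GC boxes. In these 250 bases the Ipo8 window holds 2 YY1 cores and the Nup188 window 1.

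Other genes of nuclear transport were counted from lists by role. Of 12 nucleoporins with other kinds of symbol, all were tested, 2 were called higher from 129 and 2 higher from cas. Ndc1, which anchors the pore in the membrane, was the only 1 of them with a called difference of at least 1.5-fold. It gave 3002 reads from 129 and 3826 from cas in library 1, and 3406 and 4526 in library 2, a ratio of -0.71 (SE 0.06, adjusted p = 4.1e-28) that stayed called at -0.38 with 1 shared library size. Of 7 other transport receptors, 0 were higher from 129 and 2 higher from cas, among them Snupn, the import adaptor of spliceosomal snRNPs, at -0.63 (SE 0.22, adjusted p = 0.010). The call of Snupn was lost with 1 shared library size (-0.30, adjusted p = 0.25), without the block (adjusted p = 0.082) and without a variance trend (0.093).

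In the Ran cycle, 2 of 5 tested genes were higher from 129 and 0 higher from cas. Only 2 of the 5 had the same direction in both libraries, and each version of Fisher's exact test found 4 that differed between the libraries. Rcc1, the chromatin-bound exchange factor that loads Ran with GTP, gave 720 reads from 129 and 381 from cas in library 1, and 721 and 361 in library 2 (0.63, SE 0.13, adjusted p = 1.3e-05). Both libraries lay above the typical gene. The call of Rcc1 also held without the block (adjusted p = 0.025) but was lost without a variance trend (adjusted p = 0.09). Among 16 tested genes of mRNA export, 2 were higher from 129 and 1 higher from cas. The largest ratio was that of Mcm3ap (also GANP), a scaffold of the export complex TREX-2 on chromosome 10, at 1.41 (SE 0.09). The limma calls of Mcm3ap and Ndc1 were likewise lost without a variance trend (adjusted p = 0.058 and 0.085). Over these 4 lists together, 11 of 40 tested genes were called (27.5%), against 42.4% of the members and 43.9% of all tested genes, without a test of the difference. Depth differed too, with a median of 1054.5 reads in library 1 for these lists and 3285 for the members. The lists also kept chromosome 10, where Mcm3ap lies, while the members' rule left it out.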

How the data were processed

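The processed data were 1 table, with 2 columns (129 and cas) per library, from 2 strand-specific, 100 bp paired-end libraries, which per the labels were sequenced again and merged with earlier reads. Alignment used Bowtie2 and mm10, per the submitters' processing notes. The sources used here do not name the read counter, the SNPs, the annotation or the strand setting. The values deposited by the authors were RPKM under headers that say counts: value times row length in kb summed to nearly 1e6 in each column and was a whole multiple of 1 step for 100.0% of values (tolerance 0.01 read), which gave whole reads. The lengths, a value of another kind in the table deposited by the authors, did not follow annotated spans (Pearson r of log lengths -0.02, across genes), so that only alleles of 1 gene were compared.

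Because the unit was RPKM, the test was limma 3.58.1 (R 4.3.3) on log2(CPM + 0.1) of recovered reads, with trended variances, library as a block, trimmed-mean-of-M scaling and at least 20 allele reads in each library; 1570 Y-linked rows stayed out. The block pairs the alleles, which share the RNA of a library. The prior degrees of freedom were infinite, and fold changes understate low genes. On data simulated for 129 against cas over 15397 genes, 65.7% of 67 genes changed by 1.5-fold were recovered, 88.1% of 67 changed by 2-fold and 100.0% of 66 changed by 4-fold, with 10 false calls (5.6% of calls). The simulation gave all genes the same dispersion of 0.003 and changed only the genes counted above. Differences in spread between genes were not simulated, so its share of false calls does not describe the calls reported here. Exact binomial and Fisher tests used the recovered reads. Coordinates are from GENCODE M21 (mm10).

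The members and lists were chosen with earlier results of these data known. All members are accounted for. Full values are given for called members with 100 or more reads per library and for the most-read uncalled ones in each role, and of other genes for up to 4 called ones a list with at least 1.5-fold. Alternatives were other filters, scalings and pseudocounts, no block, no variance trend, single libraries and exact tests.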

Additional observations from a re-analysis of the deposited data

How the results depend on the processing

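The count of 14 called members was the same with size factors and with pseudocounts of 0.5 and 1, and was 13 without a filter, 11 with a minimum of 100 reads and 16 with exact binomial tests in both libraries. Of all tested genes 33.3% were called without a filter and 46.9% with a minimum of 100 reads. The share was 43.6% with the deposited column totals and 51.6% with 1 shared library size. With the deposited column totals, 7 members were called higher from 129 and 4 higher from cas, and with 1 shared library size 20 and 0. Their median was then 0.02 and 0.24, against -0.09; it was -0.07 with a minimum of 100 reads, and -0.13 and -0.11 without replicate 1 and without replicate 2. With 1 shared library size, 7 called members changed sign (Ipo9 to 0.12, Xpo1 to 0.19, Nup88 to 0.10, Ipo11 to 0.15, Kpna3 to 0.11, Kpna1 to 0.08, Ipo8 to 0.05), and 8 uncalled ones were called higher from 129 after a negative value (Kpnb1 0.23, Kpna2 0.20, Xpo4 0.21, Xpo7 0.24, Nup155 0.24, Kpna4 0.29, Nup205 0.25, Nup93 0.26). This follows from the scaling, which moved the median of all genes by a similar amount.

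Without the replicate block, 1 member was called (0 higher from 129, 1 higher from cas), since its spread then includes that between the libraries. Without a variance trend limma called 0 (0 and 0), with 2.0 at an unadjusted p under 0.05, and the cause was not tested. In library 1 alone, by exact binomial tests chosen after seeing the data, 21 members passed (6 higher from 129, 15 from cas), and in library 2 alone 25 (8 and 17). Asking for at least 1.2-fold, also chosen afterwards, left 7 (2 and 5), against 40.0% of all genes. With 1 library left limma has no residual degrees of freedom, so single ratios without either replicate carry no test. Depth limits Nup160, Nup214 and Kpna7, whose limma intervals include 2-fold differences. The exact binomial intervals cover counting error only.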
